A study of Mus musculus with 24 samples.

Results

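Protocadherins are cell-surface adhesion proteins of the cadherin superfamily, and 68 of their genes were measured in the mouse dentate gyrus, the part of the hippocampus that holds the granule cells. They are all genes whose symbol starts with Pcdh and whose read counts summed to at least 240 over 24 RNA-seq libraries, 68 of 71 such rows and of 26667 genes in the table. The alpha cluster gave 13 members, the beta cluster 21 and the gamma cluster 22. The other 12 lie outside the clusters, and 9 of them belong to the delta family (Pcdh1, Pcdh7, Pcdh8, Pcdh9, Pcdh10, Pcdh11x, Pcdh17, Pcdh18 and Pcdh19). Pcdh12, Pcdh15 and Pcdh20 are described apart as the 3 remaining members. The rows below the minimum were Pcdhb1 with a summed count of 233, Pcdha4 with 22 and Pcdha4-g with 0. The members nearest above it were Pcdh12 with 641 and Pcdha8 with 1005, and 66 members had at least 10 times the minimum.

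The study asked how a drug and exercise act on the hippocampus of APP/PS1 mice, which carry mutant human APP and presenilin transgenes and form amyloid plaques. BCI-838 is a pro-drug, and its active form blocks the glutamate receptors mGluR2 and mGluR3. The groups were WT mice without treatment (5 libraries), APP/PS1 mice without treatment (5, called controls here), APP/PS1 mice given BCI-838 at 5 mg/kg by mouth each day for 1 month (4), APP/PS1 mice with a running wheel for 1 month (5) and APP/PS1 mice with both (5, the combined group). No WT mice were treated, and the labels used here give no age, sex, promoter or transgenic line. Each library came from the tissue of a separate mouse, with 48656360 to 64632882 counted reads.

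The clustered protocadherins are encoded in tandem arrays. Each neuron transcribes a small, largely random set of alpha, beta and gamma variable exons from their own promoters, under the control of CTCF and cohesin, and the resulting protein mixture lets its branches recognise and avoid each other. The C-type genes at the end of the alpha and gamma arrays are an exception and are transcribed in most neurons. Delta protocadherins are single genes expressed in region- and cell-specific patterns, and their cytoplasmic tails bind regulators of actin, kinases and phosphatases.

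Promoters are shown for 4 non-clustered members whose values by library are set beside granule cell markers further on. RefSeq promoter entries for GRCm38.p6 were found for 9 of the 12 non-clustered members (Pcdh7, Pcdh8, Pcdh9, Pcdh10, Pcdh15, Pcdh17, Pcdh18, Pcdh19 and Pcdh20). The 250 bases before the start were searched on both strands for 5 motifs. The cyclic AMP response element was searched as TGACGTCA. The Sp-family motif known as the GC box was searched with the letters GGGCGG. The core promoter element known as the TATA box was searched with the letters TATAAA. The E-box of proneural bHLH factors was searched in one form with the letters CAGCTG, which reads alike on either strand. The other E-box form that was searched, which differs at one inner base, had the letters CATCTG. These 5 motifs do not hold one another. Capitals mark the matches. The positions are chr14:79771313-79771562 (minus strand) for Pcdh8, chr14:88471397-88471646 (minus) for Pcdh20, chr14:84443313-84443562 (plus) for Pcdh17 and chr3:45378148-45378397 (plus) for Pcdh10.
Pcdh8: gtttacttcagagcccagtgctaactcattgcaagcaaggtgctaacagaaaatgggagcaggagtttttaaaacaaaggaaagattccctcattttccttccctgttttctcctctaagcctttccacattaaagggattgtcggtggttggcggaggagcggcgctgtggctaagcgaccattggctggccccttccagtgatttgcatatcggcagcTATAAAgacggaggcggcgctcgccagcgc
Pcdh20: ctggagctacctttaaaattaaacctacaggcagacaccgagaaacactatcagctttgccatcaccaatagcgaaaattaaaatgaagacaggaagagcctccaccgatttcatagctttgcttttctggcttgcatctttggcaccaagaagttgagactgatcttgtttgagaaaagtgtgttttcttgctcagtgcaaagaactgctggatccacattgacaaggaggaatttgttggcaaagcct
Pcdh17: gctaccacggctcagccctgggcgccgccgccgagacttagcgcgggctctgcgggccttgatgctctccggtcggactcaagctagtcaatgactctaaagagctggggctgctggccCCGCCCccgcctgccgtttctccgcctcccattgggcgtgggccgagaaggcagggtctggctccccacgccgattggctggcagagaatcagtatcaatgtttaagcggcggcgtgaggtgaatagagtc
Pcdh10: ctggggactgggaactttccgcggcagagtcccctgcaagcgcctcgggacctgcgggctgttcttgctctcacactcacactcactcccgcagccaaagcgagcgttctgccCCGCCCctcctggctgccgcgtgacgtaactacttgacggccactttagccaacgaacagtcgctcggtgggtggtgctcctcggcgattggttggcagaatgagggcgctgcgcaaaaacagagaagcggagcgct
The Pcdh8 window holds a TATA box just before the start, and the Pcdh20 window holds none of the 5 motifs. The Pcdh17 and Pcdh10 windows each hold 1 GC box, on the minus strand. A TATA box was found in the same window of 12.37% of 32851 mouse promoters and a GC box in 32.74%. The other motifs were in 1.55% (response element), 13.0% (CAGCTG) and 14.44% (CATCTG), and no window of the 9 genes held any of them. A TATA box was also in the Pcdh15 window and a GC box in those of Pcdh18 and Pcdh19. CpG pairs numbered 22 in Pcdh10, 21 in Pcdh17, 11 in Pcdh8 and 3 in Pcdh20, beside a median of 6 over all promoters.

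The alpha, beta and gamma arrays lie on chromosome 18 on the plus strand (GRCm38, the assembly that mm10 names), alpha from 36930184 to 37187661, beta members from 37294812 to 37524479 and gamma from 37661793 to 37841873. In the GENCODE annotation each alpha gene shares its last exons with 12 other alpha genes and each gamma gene with 21 other gamma genes. How reads in those shared exons were counted is not given in the sources used here. Levels between genes are therefore given as CPM (counts scaled to a common library size with TMM factors) per kilobase of exon that no other annotated gene overlaps. Pcdha10 was not found by symbol and Pcdhga10 has 0 such bases, so 66 members have a level per kilobase.

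In WT tissue the non-clustered delta genes made up the largest share of protocadherin reads. Delta members took 51.8% of the summed CPM, gamma 22.8%, beta 11.8%, the 3 remaining genes 9.02% and alpha 4.56%. These are shares of counted reads, and they depend on how reads in exons shared by alpha or gamma genes were counted. Per kilobase, the median level was 10.4 for delta, 4.70 for gamma, 2.00 for beta and 1.64 for alpha members. Levels within a class varied widely, by 33.1-fold between the highest and lowest alpha gene, 11.5-fold in beta and 29.7-fold in gamma. By all exon bases these spreads were 36.7-fold in alpha, 7.84-fold in beta and 16.1-fold in gamma. The medians were then 8.66 for delta, 2.52 for gamma, 2.00 for beta and 0.706 for alpha members.

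**Figure D1:**
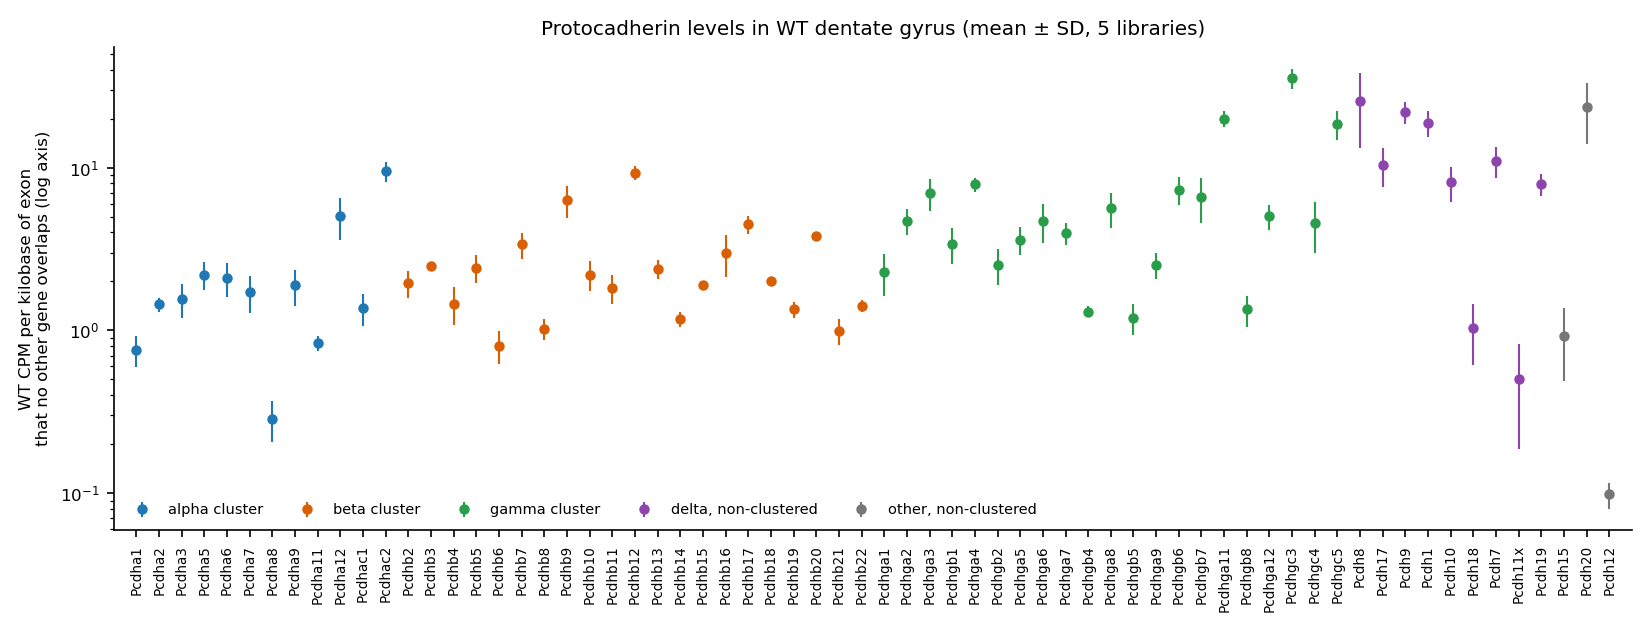
Mean level of 66 protocadherins in WT dentate gyrus, in CPM per kilobase of exon that no other gene overlaps (log axis), with the SD over 5 libraries as bars. Genes are in cluster order by class. Pcdhgc3 was highest at 35.4 (rank 5 by all exon bases) and Pcdh12 lowest at 0.0984.

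Among the alpha genes, Pcdhac2 stood above the rest. This C-type gene, needed for the spacing of serotonergic axons, had 27.6, 33.7, 23.8, 32.1 and 27.0 CPM in the 5 WT libraries, or 9.52 ± 1.33 CPM per kilobase (SD, n = 5). Pcdha12 was next at 5.08 ± 1.46 per kilobase, and these 2 did not overlap within 1 SD. Pcdhac1, the other alpha C-type gene, had 3.51 ± 0.783 CPM (SD, n = 5) and ranked 9 of 12 per kilobase. The lowest was Pcdha8 at 0.287 per kilobase. Together the alpha C-type genes took 42.2% ± 1.59 (SD, n = 5) of alpha CPM in WT and group means of 39.1% to 44.6% in APP/PS1 mice.

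The beta genes are single-exon genes with no constant exons. Pcdhb12 ranked first per kilobase at 9.26, but only 36.5% of its exon bases are free of the overlapping gene Gm37446. It ranked 4 when all its exon bases were used. Pcdhb9 was second at 6.31 ± 1.38 per kilobase (SD, n = 5) and first under all exon bases. Its WT libraries had 17.7, 22.7, 12.8, 20.3 and 23.0 CPM. Pcdhb17 had 4.47 and Pcdhb20 3.80 per kilobase, while Pcdhb6 was lowest at 0.805.

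In the gamma cluster the C-type genes Pcdhgc3 and Pcdhgc5 led in CPM. Pcdhgc3, which promotes dendrite branching by binding Axin1, had 65.7, 71.9, 48.9, 69.5 and 66.1 CPM in WT and 35.4 ± 4.98 per kilobase (SD, n = 5). That value was 19.1 when the bases shared with the overlapping BC037039 were counted in its length, and Pcdhgc3 remained the first gamma gene. Pcdhgc5, which binds a subunit of GABA-A receptors, had 64.2, 87.7, 74.0, 110.1 and 92.3 CPM and 18.6 ± 3.82 per kilobase. Pcdhga11 had 19.95 ± 2.17 per kilobase by non-overlapped bases, within the spread of Pcdhgc5, but 9.50 once the overlap with Gm26672 was counted in its length. Pcdhgc4, known for its role in neuron survival, had 15.9 ± 5.44 CPM (SD, n = 5), with 20.9, 22.3, 10.3, 11.6 and 14.5 in the 5 libraries. The 3 C-type genes took 43.2% ± 1.83 of gamma CPM in WT and group means of 41.4% to 43.0% in APP/PS1 mice.

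Among non-clustered genes, Pcdh8 was highest per kilobase at 25.8 ± 12.5 (SD, n = 5), followed by Pcdh20 at 23.5 ± 9.45, Pcdh9 at 22.0 ± 3.36 and Pcdh1 at 18.9 ± 3.47. These neighbours did not differ beyond their spread. Pcdh7 had 10.98, Pcdh17 10.4, Pcdh10 8.13 and Pcdh19 7.91 per kilobase. Pcdh18, which binds the reelin adaptor Dab1, had 1.04, and Pcdh15, the tip-link protein of hair cells, had 0.929. Pcdh11x had 0.505. The endothelial protocadherin Pcdh12 was lowest of the 66 at 0.0984 per kilobase, or 0.596 ± 0.108 CPM.

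Libraries differed in tissue markers and in transcript length, partly along the groups, and these differences touch several members. Granule cell markers (12 of 12 measured) summed to 245 CPM in WT replicate 3 and 364 in control replicate 3, against 498 to 1334 in the other libraries. Dorsal midbrain markers (9 of 10 measured) summed to 53.1 to 107.1 CPM in all 4 BCI-838 libraries, 7.13 to 80.5 in controls, 5.15 to 96.0 in WT, 2.55 to 108.2 in the exercise group and 1.85 to 40.8 in the combined group. Pax7, which defines that list, was at 0 in control replicates 2 and 5, exercise replicate 5 and combined replicates 4 and 5. Otx2, also on that list, is a choroid plexus marker too, so the sums and the covariate made from that list include a gene of that tissue. The choroid plexus gene Ttr exceeded 100 CPM in control replicates 2, 4 and 5 and in combined replicate 5. Long transcripts were also under-represented in some libraries. The tilt, the median log2 deviation of genes with transcripts of at least 5068 bases minus that of genes with at most 1779 bases, was -0.39, -0.37 and -0.26 in exercise replicates 1, 2 and 5 and -0.23 in control replicate 1. In the other 20 libraries it lay between -0.16 and 0.19.

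Untreated APP/PS1 mice were compared with WT mice to see the levels under the transgenes alone. No protocadherin passed the test (edgeR quasi-likelihood, Benjamini-Hochberg adjusted p under 0.05 over 18286 genes), where 0.0109% of all genes did. DESeq2 and voom also called 0 members, where they called 14 and 2 of 18286 genes. At an unadjusted p under 0.05, 0 members were higher (2.00% of all genes) and 2 were lower (0.755%). The median log2 fold change was -0.13 for alpha, -0.12 for beta, -0.00 for gamma and -0.08 for delta members, beside -0.01 for all genes. With the length tilt as a covariate the alpha median turned to 0.081.

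The 2 lower members were Pcdhga4 and Pcdhb15. Pcdhga4 had 12.8, 13.0, 13.9, 10.97 and 11.2 CPM in WT and 9.88, 8.57, 9.55, 9.04 and 9.70 in controls. The groups did not overlap, and the log2 fold change was -0.40 (SE 0.16), but the adjusted p was 1 by edgeR. Pcdhb15 had 5.02, 5.33, 5.73, 5.50 and 5.15 CPM in WT and 4.29, 4.87, 4.18, 3.91 and 4.94 in controls, also without overlap, at a log2 fold change of -0.27 (SE 0.13). The members of next smallest p were Pcdhb19 at -0.36 and Pcdh9 at -0.24, and both overlapped between the groups. How many of all genes separate without overlap was not counted, here or in the comparisons below, so non-overlap is given as description only. The C-type genes had log2 fold changes of -0.34 (Pcdhac1), -0.02 (Pcdhac2), -0.12 (Pcdhgc3), -0.21 (Pcdhgc4) and -0.01 (Pcdhgc5).

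BCI-838 alone was compared with untreated APP/PS1 mice to ask what the drug does without exercise. Beta members had a median log2 fold change of 0.22, with 18 of 21 above 0 (50.08% of all genes). The median was 0.08 for alpha, 0.02 for gamma, 0.10 for delta and -0.00 for both the 3 remaining genes and all genes. The length tilt was also used as a covariate, a setting chosen after the data were seen. With it the medians of alpha, gamma and delta turned to -0.22, -0.10 and -0.06, and beta stayed above 0 at 0.13. In that setting 28 of 68 members were higher in place of 47, beside 9399 of 18286 genes. No member passed the edgeR test, as no gene did (0%), and DESeq2 called 0 members, where it called 170 of 18286 genes. At an unadjusted p under 0.05, 8 members were higher (4.23% of all genes), 5 of them beta genes, and 1 was lower (5.96%). Voom with quality weights called 2 members, Pcdhb20 and Pcdh7, where it called 2.32% of all genes.

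Pcdhb20 had the smallest p of the members. It had 15.3, 18.3, 15.1 and 15.7 CPM with the drug and 12.7, 12.1, 14.4, 12.2 and 14.4 in controls. Every drug library was above every control, at a log2 fold change of 0.29 (SE 0.08, edgeR quasi-likelihood with Benjamini-Hochberg adjusted p = 0.208). Pcdhb15 and Pcdhb18 did not overlap between these groups either, nor did Pcdhb19, Pcdhb21 and Pcdhb22. The share of all genes that separate in this way was not counted. Pcdhb15 had 5.81, 6.78, 5.52 and 5.36 CPM with the drug, above the control values given before, at 0.40 (SE 0.13). The same control libraries enter the genotype comparison, where Pcdhb15 was lower in them than in WT. Pcdhb18 had 10.7, 11.6, 11.5 and 10.8 CPM against 8.49, 9.88, 9.99, 8.61 and 9.17 in controls, at 0.27 (SE 0.10).

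Pcdh7, whose cytoplasmic tail binds protein phosphatase 1 and the phosphatase inhibitor SET, had the largest difference with the drug. It had 112, 123, 163 and 149 CPM in the BCI-838 group and 79.2, 49.6, 111, 54.0 and 55.2 in controls, so the groups did not overlap but the lowest drug library and the highest control lay side by side. The log2 fold change was 0.97 (SE 0.30, edgeR adjusted p = 0.271). In WT mice the gene had 125, 90.2, 86.4, 71.7 and 85.9 CPM, highest in replicate 1, the WT library with the highest dorsal midbrain sum. In the exercise group it was highest in replicate 4 at 123 CPM, where the dorsal midbrain sum was also highest at 108.2. In controls and in the combined group the highest library was not the one with the highest sum. Control replicate 3 had 111 CPM of Pcdh7 at a sum of 23.9, and control replicate 1 had 79.2 at 80.5. Combined replicate 3 had 137 CPM at 20.4, and combined replicate 2 had 76.8 at 40.8. With the dorsal midbrain markers as a covariate the log2 fold change of Pcdh7 was 0.65. Without the high-Ttr libraries, which left control replicates 1 and 3 as the only controls, it was 0.52. With the length tilt as a covariate it was 0.67, and no setting but voom gave an adjusted p under 0.05. Whether fewer or more cells of a type, or a changed level per cell, lies behind such a value cannot be told apart in bulk tissue.

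Pcdh11x, Pcdh18 and Pcdh1 were the other delta members with large differences. Pcdh11x had 8.72, 6.86, 12.3 and 13.2 CPM with the drug and 6.44, 3.66, 15.3, 5.29 and 2.64 in controls, which overlapped. Pcdh18 had 7.98, 5.47, 11.03 and 10.4 CPM with the drug against 7.25, 5.09, 5.87, 5.76 and 3.06, at a log2 fold change of 0.69 (SE 0.32). Pcdh1 was the 1 member lower at an unadjusted p under 0.05, with 124, 129, 109 and 94.2 CPM against 131, 159, 133, 139 and 241 in controls. All 4 drug libraries were below all 5 controls, at -0.49 (SE 0.22). The highest control, replicate 5, had 1269 CPM of Ttr.

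**Figure D2:**
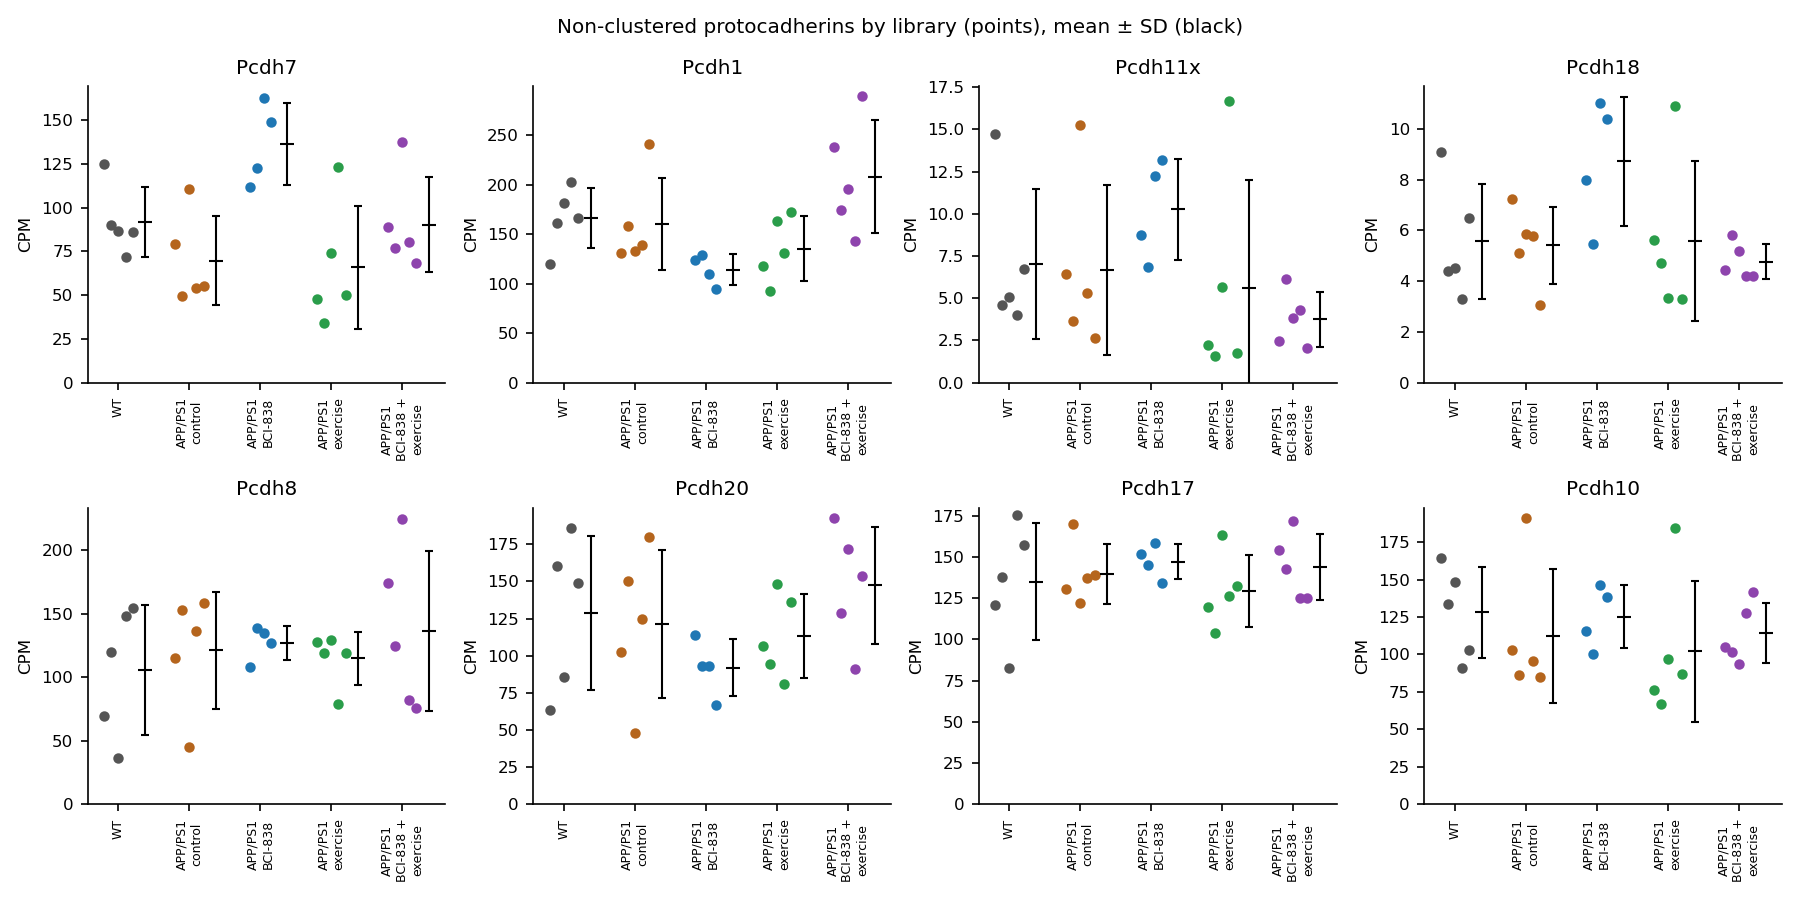
CPM of 8 non-clustered protocadherins in each library (points) by group, with the group mean and SD in black. The 4 BCI-838 libraries of Pcdh7 lie above the 5 controls, and Pcdh8, Pcdh20 and Pcdh17 have low points in WT replicate 3 (36.2, 85.8 and 82.9 CPM).

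The running wheel alone was compared with untreated APP/PS1 mice to ask what exercise does without the drug. Members lay mostly below 0, while 52.78% of all genes were above 0. The median log2 fold change was -0.23 for alpha (12 of 13 lower) and -0.23 for gamma (20 of 22 lower). It was -0.07 for beta (16 of 21 lower) and -0.09 for delta (8 of 9 lower), beside 0.01 for all genes. No member passed the edgeR test (0.00547% of all genes) or those of DESeq2 and voom (61 and 0 of 18286 genes). Members lower at an unadjusted p under 0.05 numbered 3 (3.07% of all genes), with 0 higher (2.37%). They were Pcdhgb5, Pcdhga9 and Pcdha7.

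The summed levels show which exercise libraries lay low. Alpha members summed to 45.2, 38.9, 82.2, 85.9 and 61.9 CPM in the 5 exercise libraries, against 62.0, 69.4, 83.6, 62.2 and 81.5 in controls. Gamma members summed to 294, 216, 403, 367 and 361 CPM with the wheel and to 344, 364, 396, 318 and 439 in controls. Replicates 1, 2 and 5 were the lower alpha libraries, and they are the 3 exercise libraries in which long transcripts were under-represented. Leaving out the 4 libraries with a tilt below -0.2 was a setting chosen after the data were seen. The alpha median was then 0.27 and the median over all 68 members was 0.08, with 46 of 68 higher (8692 of 18740 genes). Exercise was then represented by 2 libraries.

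**Figure D3:**
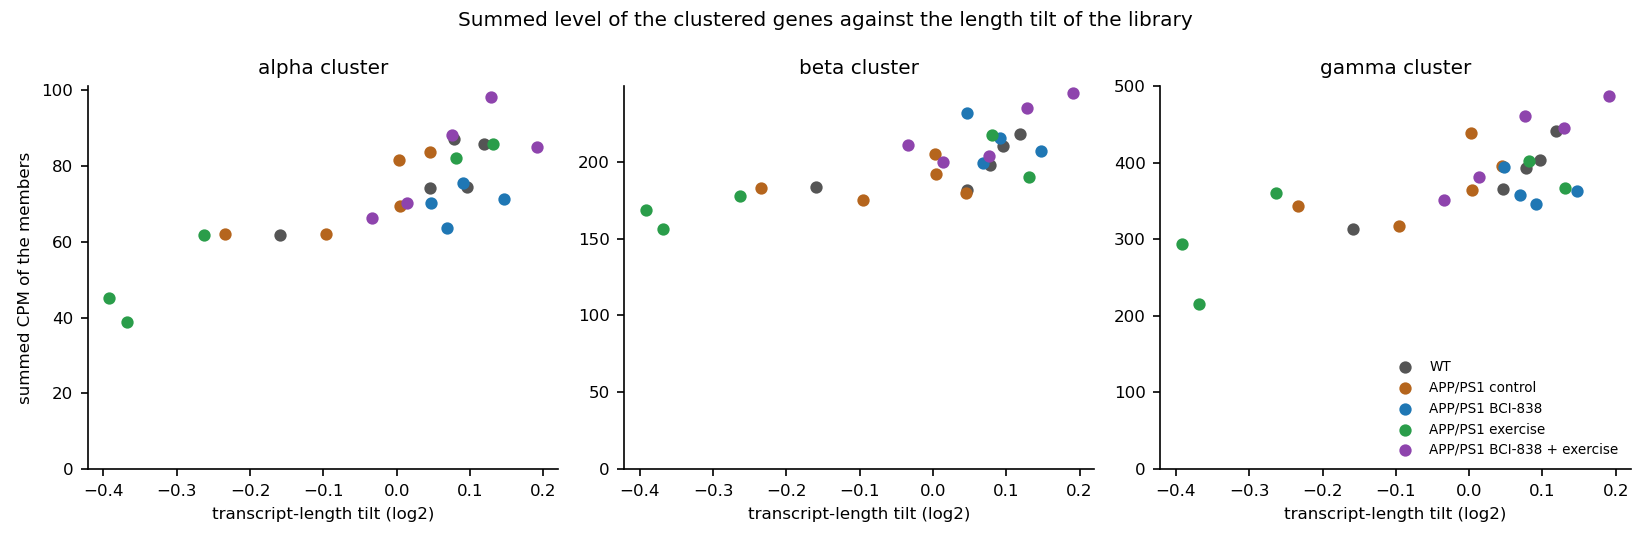
Summed CPM of alpha, beta and gamma members in each of 24 libraries against the length tilt of that library (log2, all genes), coloured by group. The 3 exercise libraries with a tilt of -0.26 to -0.39 include the lowest 2 sums of each class.

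Pcdhgb5 was the member of smallest p with the wheel. It had 3.52, 2.96, 4.46, 5.30 and 3.32 CPM with exercise and 6.30, 5.64, 5.82, 5.27 and 5.94 in controls, overlapping only by exercise replicate 4. The log2 fold change was -0.57 (SE 0.17, edgeR adjusted p = 0.416) and -0.23 without the tilted libraries. Pcdhga9 was at -0.35, Pcdha7 at -0.51 and Pcdhga2 at -0.37, and the value for Pcdhga2 turned to 0.08 without the tilted libraries. The C-type genes had -0.00 (Pcdhac1), -0.19 (Pcdhac2), -0.07 (Pcdhgc3), -0.32 (Pcdhgc4) and -0.20 (Pcdhgc5).

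**Figure D4:**
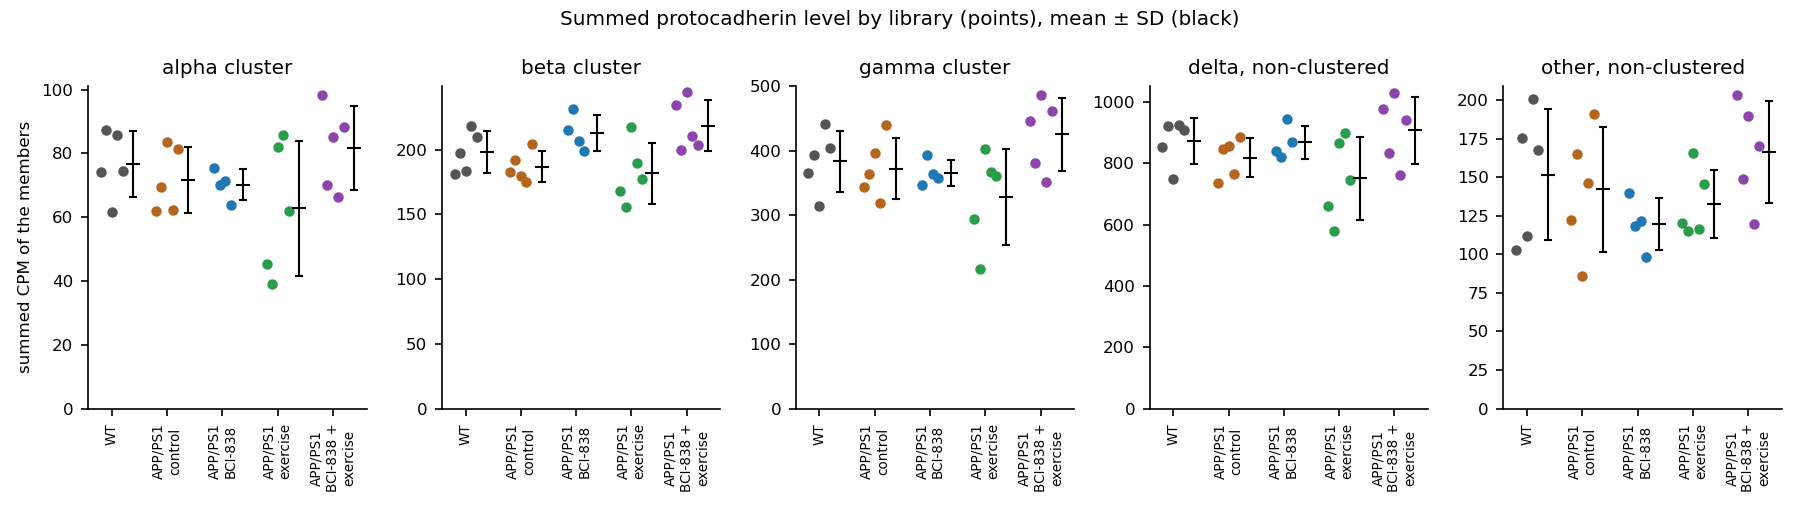
Summed CPM of the members of each class by library (points) and group, with mean and SD in black. The mean of the combined group is above that of the exercise group in all 5 classes, and the exercise libraries of alpha run from 38.9 to 85.9.

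Drug and wheel together were compared with untreated APP/PS1 mice. All 21 beta members were above 0, at a median of 0.23 on the log2 scale, as were 12 of 13 alpha (0.19) and 17 of 22 gamma members (0.18). Delta members had a median of 0.04 and all genes -0.01, with 48.64% of all genes above 0. No member passed the edgeR test (0% of all genes), and DESeq2 and voom called 0 members (82 and 0 of 18286 genes). At an unadjusted p under 0.05, 8 members were higher (4.87% of all genes), 6 beta and 2 gamma genes, and 0 were lower (5.73%). This comparison shares its control libraries with those of each treatment alone and with the genotype comparison, so low control values enter all of them.

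The 4 members of smallest p were Pcdhb15, Pcdhb19, Pcdhga4 and Pcdhb5. Of these, Pcdhb15, Pcdhb19 and Pcdhga4 also had the smallest p in the genotype comparison, as lower in the same controls. The 2 results for these genes are therefore not separate findings. Pcdhb15 had 6.68, 4.24, 5.67, 6.24 and 6.41 CPM in the combined group, and replicate 2 fell within the control range of 3.91 to 4.94. Its log2 fold change was 0.40 (SE 0.13, edgeR adjusted p = 0.309). Pcdhb19 had 12.1, 9.36, 12.7, 11.1 and 10.5 CPM against 5.95, 7.33, 8.93, 6.83 and 8.44 in controls, with no overlap, at 0.57 (SE 0.18). Pcdhga4 had 15.2, 15.02, 12.8, 9.61 and 12.6 CPM, at 0.48 (SE 0.16), and Pcdhb5 was at 0.39 (SE 0.13). With the length tilt as a covariate Pcdhb19 was at 0.34, the median over all members was 0.04 in place of 0.19, and the alpha and delta medians turned to -0.058 and -0.11.

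The combined group against the exercise group, the effect of the drug in running mice, gave the most one-sided differences. It shares its exercise libraries with the wheel comparison, so low exercise values enter both comparisons, which are not separate findings. All 13 alpha members, all 21 beta members and 20 of 22 gamma members had higher means with the drug, with median log2 fold changes of 0.39, 0.34 and 0.34. Delta members had a median of 0.15, the 3 remaining genes 0.29 and all genes -0.02, with 46.65% of all genes above 0. Alpha members share exons among themselves, as gamma members do, so members of a class may not be independent observations. At an unadjusted p under 0.05, 24 members were higher, 35.3% of 68, beside 8.73% of all genes, and 0 were lower (8.83%). They were 10 gamma, 9 beta, 4 alpha and 1 delta gene. None passed the edgeR test at an adjusted p under 0.05, as no gene did (0%). DESeq2 called 8 of the members (1.99% of all genes) and voom 12 (5.41%), all of them higher.

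Pcdhgb5 and Pcdhga9, neighbouring gamma genes, had the smallest p. Pcdhgb5 had 6.72, 5.60, 9.06, 6.75 and 7.23 CPM in the combined group, all above the exercise values of 2.96 to 5.30. The log2 fold change was 0.85 (SE 0.17, 1.81-fold, edgeR adjusted p = 0.0855). Pcdhga9 had 12.8, 9.81, 13.4, 9.07 and 8.70 CPM against 6.35, 5.40, 8.34, 6.90 and 7.26, again without overlap, at 0.65 (SE 0.14, edgeR adjusted p = 0.0987). Pcdhga5 and Pcdhga7 were both at 0.56 (SE 0.15, edgeR adjusted p = 0.131) and overlapped with the exercise libraries. DESeq2 gave an adjusted p of 0.00157 for Pcdhgb5 and 0.00522 for Pcdhga9, and voom 0.0235 for both. Over all settings tried, the adjusted p ran from 0.00157 to 0.74 for Pcdhgb5 and from 0.00522 to 0.74 for Pcdhga9.

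These counts moved with the length tilt of the exercise libraries. Alpha members summed to 98.2, 70.2, 85.2, 66.4 and 88.2 CPM in the combined group, so exercise replicates 3 and 4 (82.2 and 85.9) lay within its range and replicates 1, 2 and 5 below it. Beta members summed to 235, 200, 245, 211 and 203 CPM in the combined group and to 169, 156, 218, 190 and 178 with exercise alone, where replicate 3 lay within the range. With the tilt as a covariate, 9 members were higher at an unadjusted p under 0.05 (3.23% of all genes) and 1 lower (713 of 18286 genes). The median over members was then 0.07. Without the 4 tilted libraries, 4 were higher (3.46% of all genes) and 1 lower (583 of 18740 genes), with a median of 0.07 and an alpha median of -0.10. Exercise was then represented only by replicates 3 and 4, the exercise libraries with the highest alpha sums, so fewer libraries and the tilt cannot be told apart. Neither setting gave a called member or any other called gene. Genes of 4000 to 6000 bases, 3488 in number, had a median of 0.04 in this comparison, and those of at least 5068 bases 0.11. Pcdhgb5 and Pcdhga9 were at 0.66 and 0.50 with the covariate and at 0.54 and 0.51 without the tilted libraries.

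Single libraries decided the count of called members here. Without exercise replicate 3, edgeR called 7 members (Pcdhb5, Pcdhb11, Pcdhb18, Pcdhga4, Pcdhga5, Pcdhgb5 and Pcdhga9), among 400 of 18286 genes. Without exercise replicate 4 it called Pcdhgb5, among 10 of 18224 genes, and without combined replicate 2 it called Pcdhgb5 and Pcdhga9, among 83 of 18255. Replicates 3 and 4 are the exercise libraries with the highest alpha sums.

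**Figure D5:**
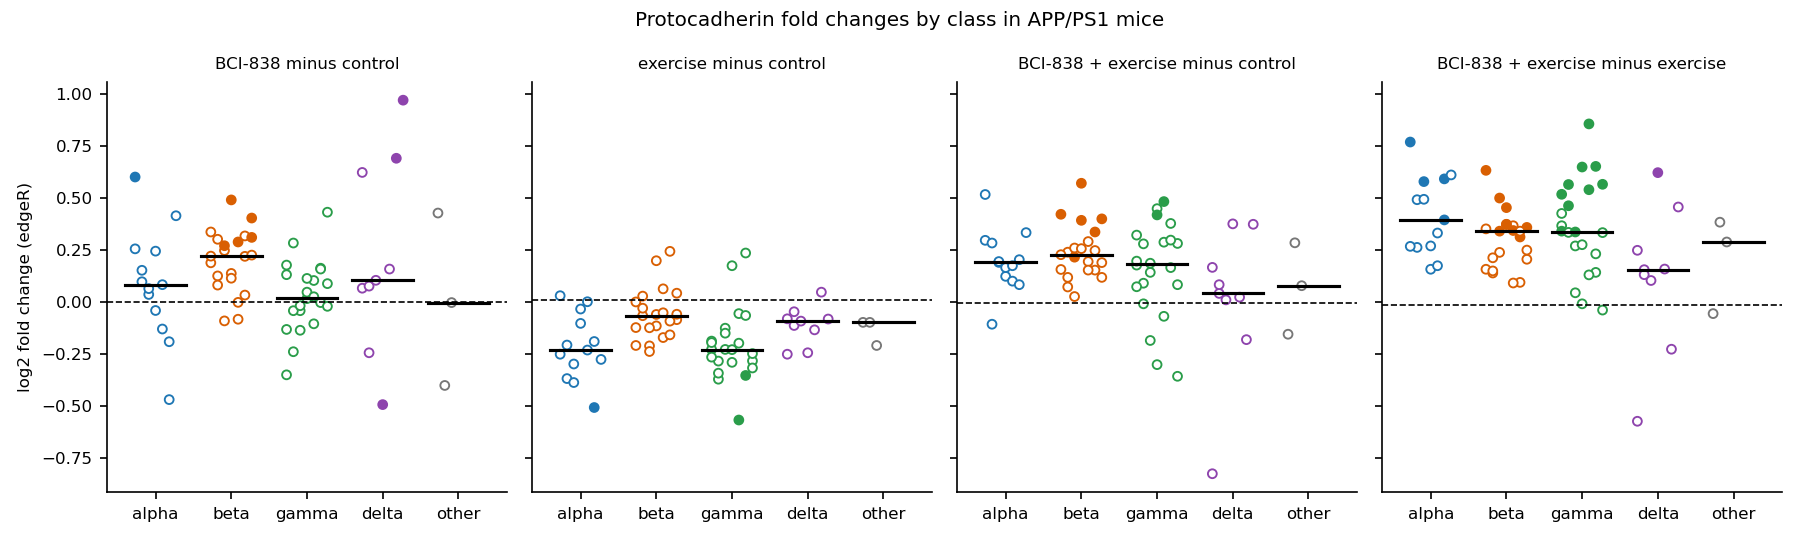
Log2 fold changes of the 68 members by class in 4 comparisons of APP/PS1 mice (edgeR). Filled points have an unadjusted p under 0.05, black lines are class medians, and the dashed line is the median of all genes. In the comparison of the combined group with exercise, 24 points are filled.

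The wheel in drug-treated mice, the combined group against BCI-838 alone, gave class medians on both sides of 0. The median log2 fold change was 0.20 for gamma, 0.13 for alpha, 0.01 for beta and -0.09 for delta members. At an unadjusted p under 0.05, 6 members were higher (7.48% of all genes) and 3 lower (6.84%). Together these were 13.2% of members, beside 2619 of 18286 genes, a share near that of all genes. No member or other gene passed the edgeR test (0%). DESeq2 called 1 member, Pcdh1 (1.40% of all genes), and voom 4 (4.79%), Pcdh1 and Pcdhgc5 as higher and Pcdhgc4 and Pcdh11x as lower.

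Pcdh1, a delta protocadherin best known from airway epithelium, had 238, 175, 195, 143 and 290 CPM in the combined group and 124, 129, 109 and 94.2 with the drug alone. The groups did not overlap, at a log2 fold change of 0.87 (SE 0.22, 1.83-fold, edgeR adjusted p = 0.185). The highest value, combined replicate 5, came with 297 CPM of Ttr. The value was 0.72 without the high-Ttr libraries and 0.45 with the dorsal midbrain covariate.

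Among gamma C-type genes, Pcdhgc5 and Pcdhgc4 differed in opposite directions. Pcdhgc5 had 114, 99.8, 129, 73.9 and 114 CPM in the combined group and 60.7, 81.3, 67.5 and 57.2 with the drug alone, overlapping by combined replicate 4, at 0.67 (SE 0.21, edgeR adjusted p = 0.193). Its share of gamma CPM was 18.2% ± 1.94 (SD, n = 4) with the drug and 24.8% ± 2.24 (SD, n = 5) with both. Pcdhgc4 had 8.57, 13.5, 10.9, 10.96 and 9.78 CPM against 17.8, 14.6, 20.7 and 21.1, without overlap, at -0.79 (SE 0.29, edgeR adjusted p = 0.228). In a fit of the compared groups alone edgeR called Pcdhgc4 (adjusted p = 0.0463), among 111 of 17431 genes. Over all settings the adjusted p of Pcdhgc4 ran from 0.0425 to 1. Pcdhgc3 did not move beyond its spread, with a log2 fold change of 0.01 (SE 0.18).

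The dorsal midbrain covariate changed these values. The summed markers were 53.1 to 107.1 CPM with the drug alone and 1.85 to 40.8 in the combined group. With the covariate Pcdhgc5 was at 0.38 and Pcdhgc4 at -0.27. Pcdh18, at -0.87 (SE 0.33) without it, was at 0.04 with it. Pcdh11x, the member with the largest difference, was at -1.45 (SE 0.61), with 2.46, 6.13, 3.83, 4.30 and 2.04 CPM in the combined group.

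The interaction of drug and wheel tests whether the drug effect differs with and without the wheel. It uses the same control, drug, exercise and combined libraries as the comparisons above, so it is not separate from them. The interaction was above 0 at an unadjusted p under 0.05 for 10 members (5.37% of all genes) and below 0 for 0 (4.23%), and 7 of the 10 were gamma genes. No member or other gene passed the edgeR test (0%), while DESeq2 called Pcdh1 (0.421% of all genes) and voom 0 members (0 of 18286 genes). Median interactions were 0.30 for alpha, 0.35 for gamma, 0.07 for beta and -0.00 for delta members. Without the tilted libraries, with exercise replicates 3 and 4 as the only exercise libraries, the alpha median was -0.06 and the beta median -0.07.

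Pcdh1 had the smallest p, with an interaction of 1.11 (SE 0.30, edgeR adjusted p = 0.272). Its log2 fold change with the drug was -0.49 (SE 0.22) in sedentary and 0.62 (SE 0.20) in running mice. Without the high-Ttr libraries, with control replicates 1 and 3 as the only controls, the interaction was 0.68. Pcdhgb5 followed at 0.83 (SE 0.24), Pcdhga9 at 0.65 (SE 0.21) and Pcdha7 at 1.06 (SE 0.35). Pcdha7 had 3.49, 3.47, 3.01 and 2.51 CPM with the drug, 4.17, 3.98, 4.90, 4.78 and 3.78 in controls, 2.09, 2.02, 4.57, 2.70 and 3.82 with exercise and 4.53, 3.65, 7.55, 3.48 and 3.69 with both. The drug libraries lay below all controls, while the combined group overlapped with both the control and the exercise group.

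Pcdh8, Pcdh20 and Pcdh17, whose promoters are shown above, varied between libraries more than between groups. Pcdh8, an activity-induced protein that removes N-cadherin from synapses, had 69.3, 120, 36.2, 148 and 154 CPM in WT and 115, 153, 44.6, 136 and 158 in controls. Pcdh20 had 63.5, 161, 85.8, 186 and 149 CPM in WT and 102, 151, 48.2, 125 and 180.1 in controls. Both were low in WT replicates 1 and 3 and in control replicate 3. Prox1, which defines granule cells, was low in the same libraries, at 58.6 and 14.3 CPM in the WT replicates and 37.0 in the control replicate. Pcdh8 was likewise low in combined replicates 4 and 5, at 81.8 and 76.1 CPM, where Prox1 had 57.2 and 53.7. Pcdh20 was low in combined replicate 4 at 90.7 CPM but not in replicate 5, at 154. What the granule cell content adds to these values was not tested gene by gene. Pcdh17, involved in synaptic vesicle assembly, had 121, 138, 82.9, 176 and 158 CPM in WT, lowest in replicate 3. In the exercise group it was lowest in replicate 2 at 104 CPM, and replicate 4, where Prox1 was lowest, had 126.

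Pcdh10, which binds the WAVE complex component Nckap1, was high in some of the libraries where Pcdh8 was low. It had 164, 133, 148, 90.9 and 103 CPM in WT and was highest among controls in replicate 3 at 191 CPM. In the exercise group its highest value was 184 CPM in replicate 4, where Prox1 was lowest at 60.0. Of these 4 genes only Pcdh20 had an unadjusted p under 0.05 in any of the 7 comparisons, for the wheel in drug-treated mice. There it had 193, 129, 172, 90.7 and 154 CPM in the combined group and 114, 93.0, 93.2 and 66.9 with the drug alone, which overlapped, at 0.69 (SE 0.33). Pcdh19, the gene of a female-limited epilepsy, had group means of 63.7 to 82.3 CPM. Pcdh9 had group means of 118 to 149 CPM and Pcdh15 of 18.3 to 27.3. Pcdh12 stayed between 0.208 and 0.773 CPM in all 24 libraries.

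Genes that act with protocadherins were read from 3 lists, and none of their members passed the edgeR test in any comparison. Of 21 regulators of promoter choice (CTCF, cohesin subunits and loaders, DNA methyltransferases), 2 were higher at an unadjusted p under 0.05 for the drug in runners (8.73% of all genes) and 0 lower (8.83%), a share near that of all genes. These were the cohesin release factors Pds5a at 0.31 (SE 0.13) and Pds5b at 0.23 (SE 0.10).

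Of 16 kinase and phosphatase partners, 3 were higher (7.48% of all genes) and 2 lower (6.84%) at an unadjusted p under 0.05 for the wheel in drug-treated mice. Prkca, the protein kinase C alpha, was at 1.11 (SE 0.31) and its substrate Marcks at -0.37 (SE 0.08), both at an edgeR adjusted p of 0.185. Of 10 genes that shed and cleave protocadherins, 1 was higher (8.73% of all genes) and 2 lower (8.83%) at that p for the drug in runners. The sheddase Adam10 was at 0.31 (SE 0.10, edgeR adjusted p = 0.155) and the gamma-secretase subunit Aph1a at -0.21 (SE 0.07). For the wheel alone, which uses the same exercise libraries, Aph1a was at 0.21 (SE 0.07). In the genotype comparison no gene of these 3 lists had an unadjusted p under 0.05.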

How the data were processed

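RNA-seq of dentate gyrus from 24 mice was deposited as a table of whole-number read counts per gene, and the authors used STAR, HTSeq and DESeq on mm10, per the submitters' processing notes. The sources used here give no versions, strand setting or read layout. Counts from 2 to 21 were even in 72.8% of cases over all genes, and 6732 values equalled 1 against 17688 that equalled 2, so low counts move in steps larger than 1 read. A second deposited table holds the authors' normalised signal. Its ratio to the counts was constant within each library (relative spread at most 1.0e-14), and it was not tested. No libraries agreed within sampling noise (lowest chi-square per gene 19.4).

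Genes were kept with filterByExpr (minimum count 10, minimum total 15), and all 68 members passed. Counts were scaled with TMM and fitted over all 24 libraries with a mean per group, and 7 contrasts were tested by robust quasi-likelihood with edgeR 4.0.16 (R 4.3.3), with Benjamini-Hochberg adjustment over 18286 genes and a threshold of 0.05. The procedure was tested on simulated counts. The SE of a log2 fold change is its size over the root of the F statistic. Alternatives were DESeq2 1.42.0, voom with quality weights (limma 3.58.1), DESeq size factors, 2 other filters, a replicate block, 2 tissue marker covariates, the compared groups alone, libraries with Ttr above 100 CPM left out and each library left out. A covariate for the length tilt (16023 genes with a GENCODE transcript length, 87.6% of those tested) and leaving out the 4 libraries with a tilt under -0.2 were chosen after seeing the data. Samples with the same replicate number did not deviate together (mean correlation over 46 pairs -0.015, against 0.004 for other pairs), so the numbers were not taken as pairs.

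The members and gene lists were chosen with earlier results of these data known, and 1 pathway list is not reported here. In each comparison the called members are named, or else the 4 of smallest p. Log2 fold changes of all C-type genes are given for the genotype and the wheel only. The highest member of each class is named for its level. The 2 genes of smallest p of each pathway list are named in some comparisons only. Pcdh17, Pcdh10, Pcdh11x and other members were added for their levels or their marker libraries after their values were seen.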

Additional observations from a re-analysis of the deposited data

Results flagged for a closer look

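In 7 of the 130 groups checked (26 members in 5 groups), 1 library stood far from the others. Chance flags about 1 group in 20. Pcdh1 was 241.2 CPM in APP/PS1 control replicate 5, where the next library had 158.5. In the combined group, replicate 3 was highest for Pcdh9 at 135.0 CPM (next 126.1), for Pcdha7 at 7.547 CPM (next 4.534) and for Pcdhb18 at 12.93 CPM (next 10.47). Combined replicate 2 was lowest for Pcdhb5 at 7.968 CPM, where the next had 10.56. Pcdhga5 was 9.231 CPM in BCI-838 replicate 2 (next 8.188). Pcdhgc3 was lowest in WT replicate 3 at 48.85 CPM (next 65.7), the library with the fewest granule cell markers.

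For 3 members the drug libraries all lay on 1 side of the mean log2 CPM of their controls without the wheel and all on the other side with it. On the log2 scale Pcdh1 was at -0.4642 without and 0.6127 with the wheel, Pcdha7 at -0.4748 and 0.6019, and Pcdhgc5 at -0.3228 and 0.531. For Pcdhgc5, combined replicate 4 at 73.9 CPM was slightly below the plain exercise mean of 74.3, so there the split holds only on the log2 scale. This split was not tested in itself, and how many of all genes show it was not counted. The interaction terms in edgeR were 1.11 (SE 0.30), 1.06 (SE 0.35) and 0.87 (SE 0.29), none past the threshold.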

How the results depend on the processing

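The 4 members of smallest p in each comparison were followed under 36 alternatives, 24 of which left out 1 library and so nearly repeat the main fit. None was called in the main fit, so keeping the side of the threshold means only not being called again. Of these log2 fold changes, 984 kept direction and side whatever their size, 22 passed the threshold and 2 reversed. Pcdhga2 with the wheel was at 0.08 without the length-tilted libraries, and Pcdh18 for the wheel in drug-treated mice was at 0.037 with the dorsal midbrain covariate. Sizes moved among those that kept direction, and Pcdhgb5 with the wheel ran from -0.71 to -0.23. Members called changed from 0 to 2 for the drug (voom). For the drug in runners they changed to 8 (DESeq2), 12 (voom) and 0 to 7 (leaving out 1 library). For the wheel in drug-treated mice they changed to 1 (DESeq2), 4 (voom) and 1 (compared groups alone, among 111 of 17431 genes). For the interaction they changed to 1 (DESeq2). The 24 members at an unadjusted p under 0.05 for the drug in runners became 37 with voom, 10 with the tilt covariate and 5 without the tilted libraries. Leaving out 1 library gave 18 to 37, with 37 without exercise replicate 4. The counts over all genes moved as well. They were 3210 of 18286 in the main fit, 4431 with voom and 1303 with the tilt covariate. Without the tilted libraries 1232 of 18740 genes had such a p, and without exercise replicate 4 3808 of 18224. With the tilt covariate class medians were 0.081 (alpha, genotype), -0.22, 0.13, -0.10, -0.06 and -0.23 (alpha, beta, gamma, delta and the 3 remaining genes, drug), -0.058, 0.018, -0.11 and -0.14 (alpha, gamma, delta and remaining, both treatments), and 0.11 and -0.048 (beta and remaining, drug in runners). Without the tilted libraries they were 0.27 and 0.16 (alpha and remaining, wheel), -0.10, 0.11 and -0.20 (alpha, beta and remaining, drug in runners), and -0.057, -0.065, 0.15 and -0.069 (alpha, beta, gamma and remaining, interaction). In that setting exercise replicates 3 and 4 were the only exercise libraries. The cause of these moves was not tested. The median of the 3 remaining genes was the least stable, since it rests on 3 genes. Without the high-Ttr libraries, which left control replicates 1 and 3 as the only controls, it was -0.74 (genotype), 0.28 (drug), 0.15 (wheel), -0.14 (wheel in drug-treated) and 0.038 (interaction). It was -0.26 for the genotype with the CA field covariate. Leaving out 1 library moved it between -0.34 and -0.10 (genotype), -0.24 and 0.25 (drug), -0.12 and 0.34 (both), -0.13 and 0.31 (wheel in drug-treated) and 0.029 and 0.63 (interaction).

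With a replicate block no member was called in any comparison, where 0 to 2 of 18286 genes were. The median of the 3 remaining genes was then 0.20 for the drug and -0.12 for the wheel in drug-treated mice. For the drug in runners, 23 members were higher at an unadjusted p under 0.05 (8.89% of all genes). Depth limits Pcdh12 and Pcdha8 most.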
